A study of Homo sapiens with 12 samples.

Results

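The hypoxia-inducible factors (HIFs) and their direct regulators were followed through the chromatin accessibility data of oxamate-sensitive and oxamate-resistant pancreatic cancer cells. The 10 genes were chosen by name and comprise the 3 alpha subunits (HIF1A, EPAS1 and HIF3A), the beta subunits (ARNT and ARNT2), the 3 prolyl hydroxylases (EGLN1, EGLN2 and EGLN3), the asparaginyl hydroxylase HIF1AN and the ubiquitin ligase receptor VHL. They are 10 of 59098 RefSeq genes on chromosomes 1 to 22 and X, of which 41141 had a peak in at least 1 library. Each gene was measured over its GRCh38 span extended by 5 kb on both sides.

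Open chromatin was profiled by ATAC-seq (cutting and tagging of accessible DNA by the Tn5 transposase) in MIAPaCa2 cells, an established line of pancreatic ductal adenocarcinoma. The 4 groups were untreated parental cells, parental cells treated with oxamate, untreated resistant cells and resistant cells treated with oxamate. Oxamate competitively inhibits lactate dehydrogenase A (LDHA). Resistant cells were the survivors of prolonged growth of the same line in oxamate, so a phenotype comparison sets 1 derived population against its parent, and all groups share the MIAPaCa2 background. Each group had 3 libraries. The labels do not say whether these came from separate cultures, so p-values measure only the spread between these libraries, which may be technical.

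HIF is a pair of an oxygen-labile alpha subunit and a stable beta subunit that binds a short DNA core in the control regions of glycolytic, angiogenic and other hypoxia-induced genes, LDHA among them. When oxygen is present, prolyl hydroxylases mark the alpha subunit, VHL then recruits the ligase that sends it to the proteasome, and HIF1AN blocks its contact with coactivators. Most of this control acts on the protein, so accessibility of these genes is a separate layer from HIF activity.

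The lists held between 46401 and 63259 peaks per library and covered between 13.8 and 33.7 Mb. Covered length lay between 13.8 and 19.4 Mb in treated parental libraries and between 20.7 and 33.7 Mb in the other 9. The smallest peak width was 67 to 87 bp in parental and 94 to 124 bp in resistant libraries. MACS2 takes this width from the mean fragment length of paired reads. Fragment length and phenotype therefore cannot be told apart. Depth relative to the shallowest library was inferred from the callers' background level. It ran from 1.33 to 1.77 in untreated parental and from 1.66 to 2.77 in treated parental libraries. In resistant libraries it ran from 1.01 to 1.85 untreated and from 1 to 1.13 treated. Treated parental libraries thus covered least while all of them were deeper than the treated resistant ones. The members' covered lengths are therefore also compared as a share of the library (bases per Mb of that library's covered sequence, written per covered Mb), and the part of depth and covered length in these comparisons was not tested. Start-site peaks of KRT18 and VIM, both active in this line, were called in 12 libraries and that of KRT8 in 7. CDKN2A, which the line lacks, had no peak, and the start sites of PTPRC, CD3E, PECAM1, CDH5 and ALB had none in any library. Within 5 kb of the whole span, PECAM1 and CDH5 had a peak in 12 libraries, PTPRC in 2, and CD3E and ALB in 0.

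Merging the 12 lists gave 178040 regions, and 58 of them lay in the windows of the 10 genes. Of these, 15 were called in 12 libraries, 30 in 1 library only and 11 in 3 to 11 libraries. A peak at the annotated start site was called in all 12 libraries for 8 of the 10 genes, against 52.4% of protein-coding genes and 24.3% of all genes. A start site was a RefSeq window of 300 bases where one was given. For genes without such a window, VHL and ARNT2 among the members, a peak within 1 kb of either gene end counted instead. Shares and ranks over all genes therefore mix these unlike measures. HIF3A and ARNT2 were the exceptions, with such a peak in 0 and 2 libraries. Per kb of window, the median covered length over the 12 libraries was greatest at EGLN2 (67.8 bases per kb), followed by EGLN1 and VHL (39.1 bases per kb each), HIF1AN (31.9), HIF1A (25.9), HIF3A (21.5), EPAS1 (18.1), ARNT (15.2), EGLN3 (13.5) and ARNT2 (1.74). The ranges over libraries of neighbours in this order overlapped, except that ARNT2 reached only 3.41 bases per kb and EGLN3 never fell under 10.1.

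**Figure D1:**
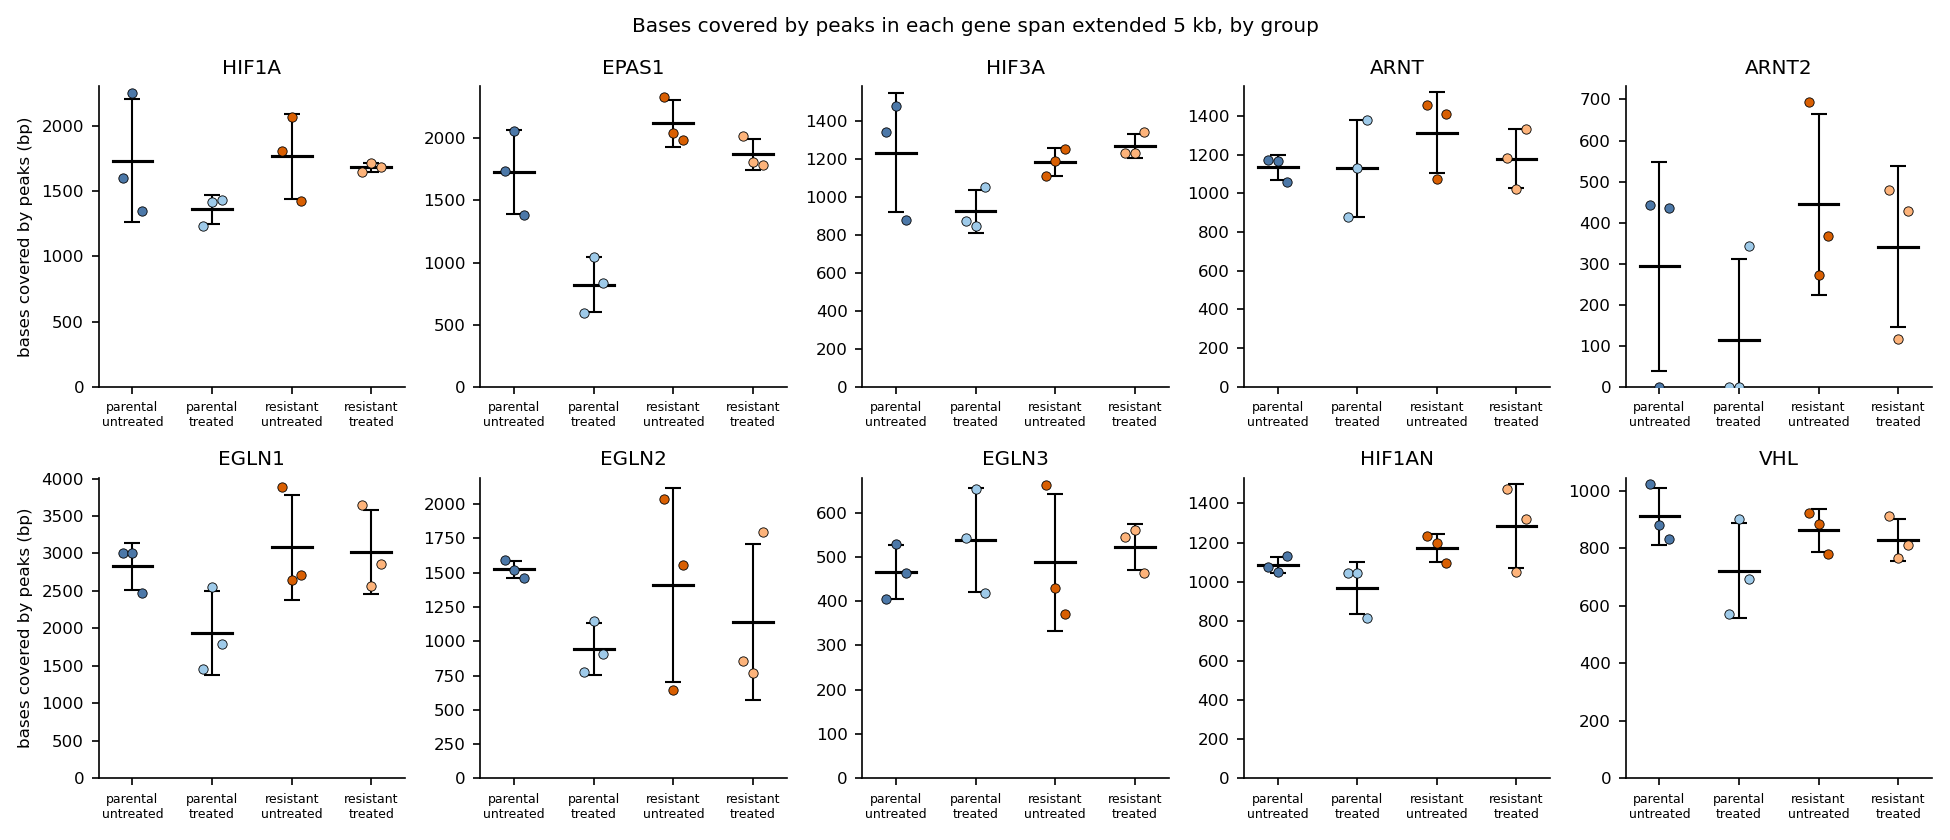
Bases covered by peaks (bp, vertical axis) in the window of each of the 10 genes for the 4 groups; points are libraries, horizontal lines group means and bars SD (n = 3). EPAS1 is lowest in the 3 treated parental libraries, between 594 and 1043 bp, while the other 9 libraries lie between 1381 and 2334 bp.

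HIF1A encodes the alpha subunit found in most cell types. The start-site window under the peak whose rank is compared below is shown with the HIF-binding core in capitals, here and in the windows further on. The core was searched as ACGTG or GCGTG on both strands, so that CACGT and CACGC also count, and overlapping matches were counted separately. Sequences are from RefSeq (GRCh38.p14), run 5′ to 3′ along the gene, and hold 250 bases before and 50 from the start site on.
HIF1A (chr14:61695263-61695562, plus strand): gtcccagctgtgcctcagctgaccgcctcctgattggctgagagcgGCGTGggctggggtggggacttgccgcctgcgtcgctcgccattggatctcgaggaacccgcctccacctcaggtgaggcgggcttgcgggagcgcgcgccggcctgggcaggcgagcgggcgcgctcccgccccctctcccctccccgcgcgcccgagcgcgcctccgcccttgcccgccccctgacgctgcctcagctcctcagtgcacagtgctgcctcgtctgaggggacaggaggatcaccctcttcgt
This window had 1 core, at position -204 from the start site, and a GC content of 73.0%. It was covered over its whole length in 12 libraries. The region called there (chr14:61694884-61696399) also holds the start of the antisense gene HIF1A-AS1, and reads of ATAC-seq cannot be assigned to either strand. A second annotated HIF1A start window (chr14:61697462-61697761) had no peak in any library.

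HIF1A's start-site peak ranked lower among the peaks of its list in every resistant library than in every parental one. Rank is given as a percentage of the list ordered by -log10 q, where 0 is the strongest peak. In untreated parental libraries the rank was 5.82, 5.18 and 3.26%, in treated parental libraries 4.70, 5.03 and 3.45%, in untreated resistant libraries 9.55, 7.93 and 7.93%, and in treated resistant libraries 6.64, 12.6 and 10.1%. The groups of a phenotype overlapped with each other, and no parental library overlapped with a resistant one. Resistant minus parental was 4.55 percentage points (exact permutation p = 0.005, the smallest that 400 assignments allow, adjusted p = 0.0618 over 14381 genes with a start-site peak in 12 libraries). The test therefore missed 0.05 after adjustment, as it did for every gene (0.0% of them passed, although 4024 had an unadjusted p under 0.05). Since p cannot fall under 0.005, no gene can pass unless more than 10% of all genes pass with it. In this test 1163 genes reached 0.005, so passing or missing 0.05 reflects the whole set and not HIF1A alone. With peaks under 124 bp left out, the difference was 4.14 points with an adjusted p of 0.0399, and adjusted p ranged from 0.0399 to 0.178 over the alternatives. Rank is a share of lists that differ in length, and with the same number of best-ranked peaks taken from every list, a setting chosen after seeing the data, the difference was 5.10 points with an adjusted p of 0.0413. At an unadjusted p under 0.05, 5.5% of genes had a weaker and 22.5% a stronger start-site peak in resistant cells, and HIF1A was on the weaker side with EPAS1.

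The weaker rank did not go with a narrower peak. At the HIF1A start region, peaks covered 760 to 1377 bp in untreated parental, 883 to 1023 bp in treated parental, 1053 to 1358 bp in untreated resistant and 1274 to 1398 bp in treated resistant libraries. A broad peak's -log10 q is an average over its length, and the part of peak width in the rank was not tested. Over the whole HIF1A window, covered length was 1735 ± 468 bp (SD, n = 3) in untreated parental, 1360 ± 112 bp in treated parental, 1766 ± 325 bp in untreated resistant and 1683 ± 36.6 bp in treated resistant libraries. The difference between phenotypes was 177 bp (exact permutation p = 0.29, adjusted p = 0.507), and -12.7 per covered Mb (exact permutation p = 0.105), so the direction turned with the scale. The other region called in 12 libraries (chr14:61750934-61751388) lay beyond the higher end of the gene, at the start of HIF1A-AS3.

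EPAS1 encodes HIF-2 alpha, the alpha subunit known from endothelium, kidney and clear cell renal carcinoma. It was the only member whose covered length was separated on both scales in more than 1 comparison. Its start-site window is shown because it was accessible in every library, unlike most regions inside the gene.
EPAS1 (chr2:46297157-46297456, plus strand): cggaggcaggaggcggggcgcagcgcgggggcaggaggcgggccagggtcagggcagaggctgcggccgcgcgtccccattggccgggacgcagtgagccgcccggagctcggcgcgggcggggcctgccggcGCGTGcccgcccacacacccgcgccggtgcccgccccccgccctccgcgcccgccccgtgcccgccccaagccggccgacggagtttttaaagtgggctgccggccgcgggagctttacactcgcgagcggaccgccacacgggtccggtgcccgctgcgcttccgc
The window had 1 core, at position -117, and a GC content of 80.0%. It was covered in whole in 10 libraries, and at least 275 of its 300 bases were covered in the other two.

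Peaks in the EPAS1 window covered 1738, 2058 and 1381 bp in untreated parental libraries and 594, 1043 and 833 bp in treated parental libraries. They covered 2334, 2043 and 1983 bp in untreated resistant libraries and 2015, 1811 and 1786 bp in treated resistant libraries. All 3 treated parental libraries were therefore below the other 9, and treated and untreated resistant libraries overlapped. In parental cells the treated mean was 0.477 times the untreated mean (difference -902 bp, pooled SD 287 bp, exact two-sided permutation p = 0.1, which is the lowest value a comparison of 3 with 3 can give). Among resistant libraries it was 0.882 times (difference -249 bp, pooled SD 160 bp, exact permutation p = 0.2). The difference between these 2 responses was 653 bp and did not pass its test (exact permutation p = 0.19, adjusted p = 1). At matched treatment, treated resistant cells had 2.27 times the covered length of treated parental cells (difference 1047 bp, pooled SD 182 bp, exact permutation p = 0.1), and untreated cells 1.23 times (394 bp, pooled SD 274 bp, exact permutation p = 0.3).

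Most of the difference between treated and untreated parental cells at EPAS1 lay away from the start site. Outside the start-site region, peaks covered 590 to 1322 bp in untreated parental, 117 to 338 bp in treated parental, 1089 to 1158 bp in untreated resistant and 728 to 975 bp in treated resistant libraries. As a share of the library this was 40.3 ± 11.7 (SD, n = 3), 12.3 ± 5.57, 39.6 ± 4.95 and 33.0 ± 3.02 bases per covered Mb, in the same order of groups. Treated parental libraries were again below the other 9 without overlap. At the start region (chr2:46296716-46298042) the share was 32.0 ± 5.41, 35.1 ± 4.75, 34.3 ± 3.69 and 38.7 ± 10.9 bases per covered Mb, so all groups overlapped there on this scale. EPAS1 was the only member below its untreated parental and treated resistant counterparts without overlap on both scales. On the per-Mb scale the treated to untreated ratio in parental cells was 0.657, and the treated resistant to treated parental ratio 1.51.

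Over all 12 libraries, EPAS1 covered 721 bp more in resistant than in parental cells (exact permutation p = 0.015, adjusted p = 0.0886) and treated minus untreated was -576 bp (exact permutation p = 0.01, adjusted p = 0.396). No gene passed an adjusted p of 0.05 in either permutation test (0.0% of 41141 in both), while 12243 genes by phenotype and 4211 by treatment had an unadjusted p under 0.05. The smallest adjusted p was 0.0613 by phenotype and 0.396 by treatment. A limma fit on log2(covered bases + 100), chosen after seeing the data, gave a phenotype difference of 0.71 ± 0.14 (SE) on the log2 scale for EPAS1 (limma adjusted p = 0.00769). This fit called 8044 genes by phenotype, 7887 of them higher in resistant cells (19.2% of all genes), with EPAS1 as the only member, and 23 genes by treatment, with no member. Per covered Mb it called 1673 genes by phenotype, 1301 higher and 372 lower, with no member. On the per-Mb scale limma gave 0.29 ± 0.12 (SE), with an adjusted p of 0.177, so the call rested on the scale. Adjusted p for this difference ranged from 0.00769 to 1 over the alternatives.

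Single regions inside EPAS1 followed the groups in different ways. A region of 446 bp (chr2:46333944-46334389, inside the gene, 36759 bases past the start site) was called in 3 of 3 untreated resistant libraries and 0 of 3 treated resistant libraries. It was called in 0 of 3 untreated and 1 of 3 treated parental libraries, and where called it ranked between 57.5 and 71.4% of its list. Regions that went from 3 of 3 to 0 of 3, or the reverse, made up 0.515% of regions between the resistant groups and 1.06% between the untreated groups. The most frequent internal region (chr2:46315149-46315868, 18101 bases past the start site) was called in 11 libraries. It was absent from 1 treated parental library and covered 117 and 222 bp in the other two, against 359 to 658 bp in the remaining 9. The regions at chr2:46298567-46298976 and chr2:46364848-46365141 were each called in 2 of 3 libraries of every group except treated parental, where they were absent. Neither differed by phenotype (Fisher's exact p = 0.567, adjusted p = 0.982). These 3 regions were singled out after their values were seen.

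The EPAS1 start-site peak ranked at 19.9, 25.9 and 20.6% in untreated parental, 36.8, 26.9 and 36.3% in treated parental, 31.0, 38.8 and 29.1% in untreated resistant and 39.2, 55.8 and 35.1% in treated resistant libraries. Untreated parental libraries were the strongest, and the other 3 groups overlapped with each other. Resistant minus parental was 10.4 points (exact permutation p = 0.015, adjusted p = 0.0934), so by rank the peak was weaker in resistant cells while the gene's covered length was greater there.

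**Figure D2:**
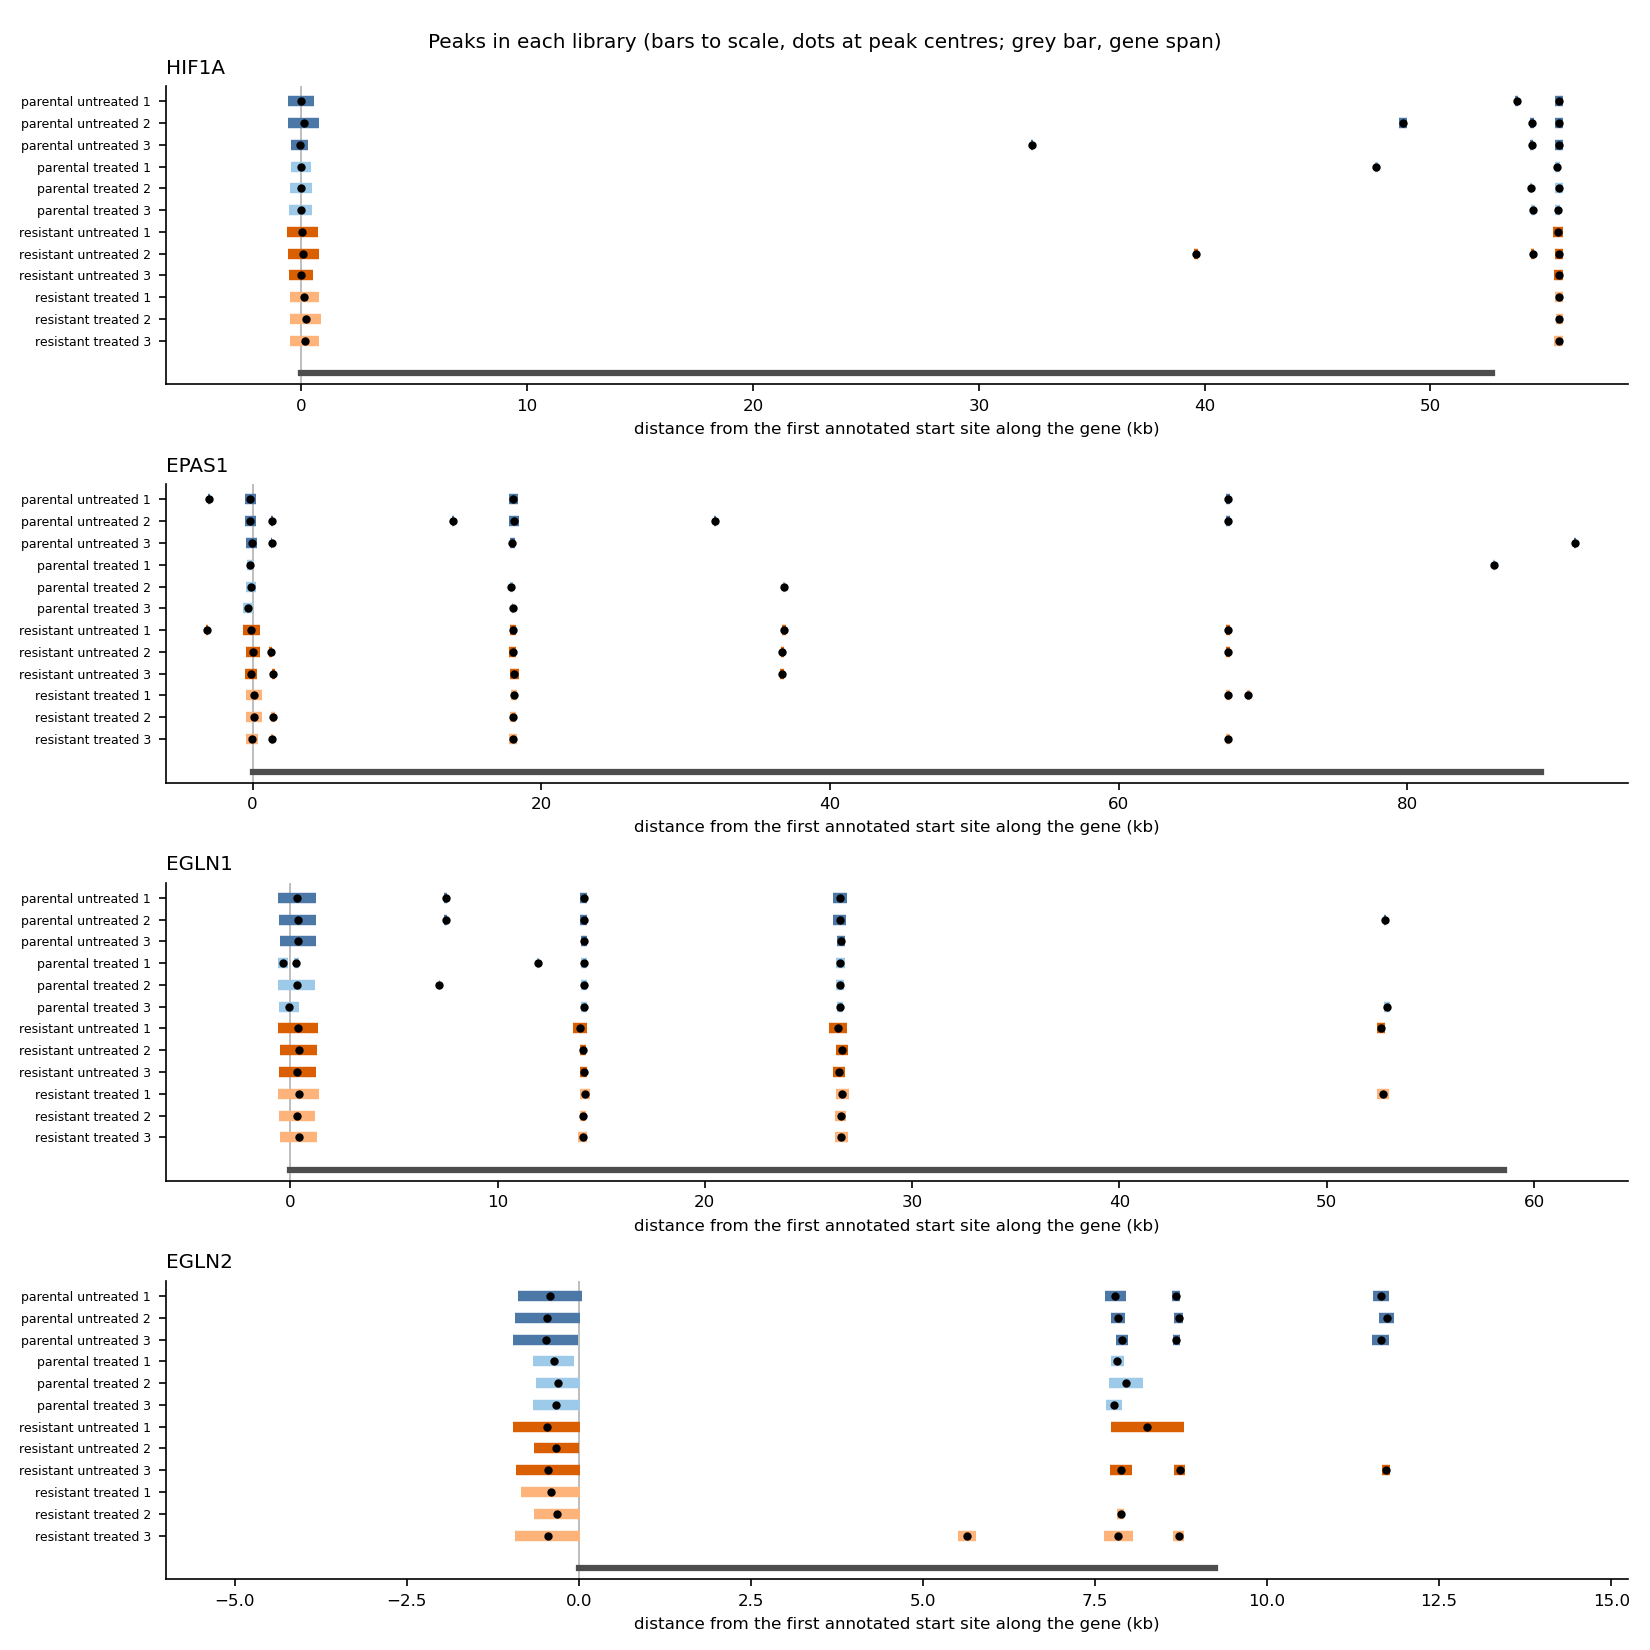
Peaks of each library at HIF1A, EPAS1, EGLN1 and EGLN2 by distance from the first annotated start site along the gene (kb, horizontal axis); bars are peaks to scale, dots their centres, and grey bars the gene span. Treated parental libraries have no EPAS1 peak near 67 kb, where 6 other libraries do, and the EGLN2 peak beyond the gene's end is present in all 3 untreated parental libraries and in 1 other.

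HIF3A, whose short isoforms act as inhibitors of the other alpha subunits, had no accessible start site. One of its 3 annotated start windows is shown for contrast, since it carries more cores than those of HIF1A and EPAS1.
HIF3A (chr19:46296792-46297091, plus strand): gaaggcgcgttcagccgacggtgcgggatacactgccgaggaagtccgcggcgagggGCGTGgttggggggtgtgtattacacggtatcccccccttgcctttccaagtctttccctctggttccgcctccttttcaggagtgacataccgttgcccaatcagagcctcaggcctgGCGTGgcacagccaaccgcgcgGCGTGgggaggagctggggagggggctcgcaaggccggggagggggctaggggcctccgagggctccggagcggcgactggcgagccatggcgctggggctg
It had 3 cores, a count that 10.1% of all windows reached or passed, and no base of it was covered in any library. The only HIF3A region called in 12 libraries (chr19:46346223-46347580) lay 2790 bases beyond the gene's higher end, within the span of PPP5C, and held most of the covered length counted for HIF3A. Covered length was 1235 ± 314 bp (SD, n = 3) in untreated parental, 926 ± 113 bp in treated parental, 1186 ± 73.7 bp in untreated resistant and 1271 ± 62.6 bp in treated resistant libraries. The difference between phenotypes was 148 bp (exact permutation p = 0.225, adjusted p = 0.417). HIF3A had the smallest p of the 10 genes in the permutation test of whether the response to oxamate differed by phenotype (394 bp, exact permutation p = 0.095, adjusted p = 1). In that test none was under 0.05, against 3.49% of all genes. No gene passed this test after adjustment, and limma called 2 genes, none of them a member.

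ARNT, the beta subunit shared by the alpha subunits and other partners, had the strongest start-site peak of the set. Its rank was 1.21 to 2.12% in untreated parental, 1.15 to 1.66% in treated parental, 1.14 to 2.64% in untreated resistant and 0.967 to 2.14% in treated resistant libraries. All groups overlapped, and resistant minus parental was 0.166 points (exact permutation p = 0.61, adjusted p = 0.756). Covered length was 1134 ± 62.9, 1129 ± 251, 1313 ± 210 and 1180 ± 155 bp (SD, n = 3) in untreated parental, treated parental, untreated resistant and treated resistant libraries, with a phenotype difference of 115 bp (exact permutation p = 0.3, adjusted p = 0.52). ARNT had 2 regions called in 12 libraries, one at the start site and one inside the gene (chr1:150813085-150813413). The internal peak ranked at 21.6, 22.3 and 24.6% in untreated parental and 63.8, 33.3 and 46.0% in treated parental libraries, without overlap. It ranked at 27.1 to 30.5% in untreated resistant and 24.0 to 42.0% in treated resistant libraries, which overlapped. Away from the start region ARNT covered 151 to 223 bp in untreated parental and 226 to 476 bp in treated parental libraries, and 139 to 297 bp in resistant ones. The treated parental values include peaks of 224, 91, 147 and 166 bp called in 1 library each. The first of these lay 3476 bases beyond the gene, within CTSK. The internal region itself covered 151 to 223 bp in untreated and 90 to 163 bp in treated parental libraries. The values of this region and of the bases away from the start were picked out after they were seen and were not tested.

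ARNT2, a beta subunit known mainly from neurons and kidney, had little accessible chromatin. It covered 444, 0 and 436 bp in untreated parental, 0, 0 and 343 bp in treated parental, 694, 273 and 367 bp in untreated resistant and 479, 117 and 429 bp in treated resistant libraries. Every resistant library had at least 1 ARNT2 peak and 3 of 6 parental libraries had none, but the groups overlapped (difference 189 bp, exact permutation p = 0.15, adjusted p = 0.32). Per covered Mb the difference was 3.96 (exact permutation p = 0.435). The region inside the gene at chr15:80567670-80568080 was present in 5 of 6 libraries of resistant cells and in 2 of 6 of parental cells, and that at chr15:80455745-80456246 in 4 of 6 and 1 of 6 (Fisher's exact p = 0.242, adjusted p = 0.561, for each). Of all 9507 regions called in 5 to 7 libraries, 11.4% had a Fisher p under 0.05, and none of the 5 in member windows did. No region passed after adjustment.

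EGLN1, the prolyl hydroxylase that sets HIF levels under normal oxygen, had the longest covered length of the set. Its start region (chr1:231420923-231422869) covered 1765 to 1812 bp in untreated parental, 1782 to 1888 bp in untreated resistant and 1757 to 1933 bp in treated resistant libraries. In treated parental libraries it covered 700 to 1783 bp, and in replicate 1 of them it was split into a pair of peaks. Over the window, covered length was 2829 ± 312, 1935 ± 560, 3082 ± 699 and 3022 ± 561 bp (SD, n = 3) in untreated parental, treated parental, untreated resistant and treated resistant libraries. Treated parental libraries lay narrowly below treated resistant ones without overlap (difference 1087 bp, exact permutation p = 0.1), but the ratio of 1.56 became 1.02 per covered Mb. Resistant minus parental was 670 bp (exact permutation p = 0.09, adjusted p = 0.229). Besides the start region, the EGLN1 regions called in 12 libraries lay 14063 and 26453 bases past the start site. Other regions inside the gene were called in 1 to 4 libraries each. The start-site peak ranked at 17.9% on average in untreated resistant and 22.5% in untreated parental libraries, without overlap, while treated parental libraries spread from 10.2 to 36.1%. The 10.2% is from replicate 1, where the stronger peak of the split pair (451 bp) was ranked, against peaks of 1783 and 937 bp in replicates 2 and 3.

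EGLN2, the oestrogen-inducible prolyl hydroxylase, had a region beyond its higher end (chr19:40810713-40811036, 2279 bases from the gene, within the pseudogene CYP2T1P) that was called in 3 of 3 untreated and 0 of 3 treated parental libraries. It was also called in 1 untreated and no treated resistant library, covering 119 to 254 bp where present and ranking between 67.8 and 85.3%. Such 3 of 3 against 0 of 3 regions made up 1.36% of regions between the parental groups. Covered length of EGLN2 was 1592, 1517 and 1464 bp in untreated parental and 772, 1146 and 906 bp in treated parental libraries, without overlap (0.618 times, difference -583 bp, exact permutation p = 0.1). Per covered Mb the ratio was 0.849, and the groups lay only narrowly apart, at 59.1 in the highest treated and 59.5 in the lowest untreated library. In resistant cells the libraries were widely spread, at 2034, 642 and 1554 bp untreated and 854, 768 and 1796 bp treated. The gene's start window held 2 overlapping cores, and reads there are shared with the read-through gene RAB4B-EGLN2.

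EGLN3, itself induced by HIF in many cells, had 1 region only, at its start site. The window is shown because the rank of its peak moved most with treatment in parental cells.
EGLN3 (chr14:33951025-33951324, minus strand): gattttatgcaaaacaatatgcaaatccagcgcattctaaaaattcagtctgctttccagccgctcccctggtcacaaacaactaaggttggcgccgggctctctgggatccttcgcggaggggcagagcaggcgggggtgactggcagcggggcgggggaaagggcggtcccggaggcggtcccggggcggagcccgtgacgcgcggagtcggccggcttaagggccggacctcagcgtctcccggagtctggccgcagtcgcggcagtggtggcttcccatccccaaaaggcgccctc
No core was found in this window. Its peak ranked at 1.88, 7.12 and 10.0% in untreated parental libraries and at 22.1, 20.2 and 24.5% in treated parental libraries. It ranked at 8.38, 12.1 and 6.09% in untreated resistant and 6.79, 11.5 and 11.4% in treated resistant libraries. All 3 treated parental libraries were thus weaker than the other 9, which overlapped with each other. The peak was not shorter there, at 542, 654 and 418 bp against 406, 529 and 464 bp in untreated parental libraries, and per covered Mb it was longer without overlap (1.61 times). Whether the rank response differed by phenotype was not tested.

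HIF1AN encodes the asparaginyl hydroxylase that blocks binding of coactivators, and VHL the receptor of the ligase that marks alpha subunits for degradation. HIF1AN covered 1087 ± 39.4, 970 ± 130, 1175 ± 70.9 and 1284 ± 214 bp (SD, n = 3) in untreated parental, treated parental, untreated resistant and treated resistant libraries. The difference between phenotypes was 201 bp (exact permutation p = 0.02, adjusted p = 0.0976) but -7.43 per covered Mb (exact permutation p = 0.17). Its 3 constant regions were the start site and 2 regions 1922 and 3004 bases beyond the higher end. VHL covered 911 ± 99.2, 722 ± 166, 862 ± 74.6 and 829 ± 73.2 bp in the same order of groups, with a phenotype difference of 29.5 bp (exact permutation p = 0.655, adjusted p = 0.889).

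VHL's start-site peak (chr3:10141449-10142375) was the one member peak with a stronger rank in resistant cells at an unadjusted p under 0.05. VHL had no start window of 300 bases, and this peak overlaps the lower end of its gene span. It ranked at 9.73, 18.7 and 15.0% in untreated parental, 33.0, 24.2 and 20.8% in treated parental, 8.51, 10.2 and 9.82% in untreated resistant and 9.07, 14.3 and 11.3% in treated resistant libraries. The treated parental libraries were the weakest, and untreated parental libraries overlapped with resistant ones. The phenotype difference was -9.68 points (exact permutation p = 0.015, adjusted p = 0.0934), and with peaks under 124 bp left out it was -14.2 points with an adjusted p of 0.0399 (range over the alternatives 0.0399 to 0.188). With the same number of best-ranked peaks from every list it was -12.2 points with an adjusted p of 0.0413. As for HIF1A, passing 0.05 in these settings required more than 10% of all genes to pass together.

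**Figure D3:**
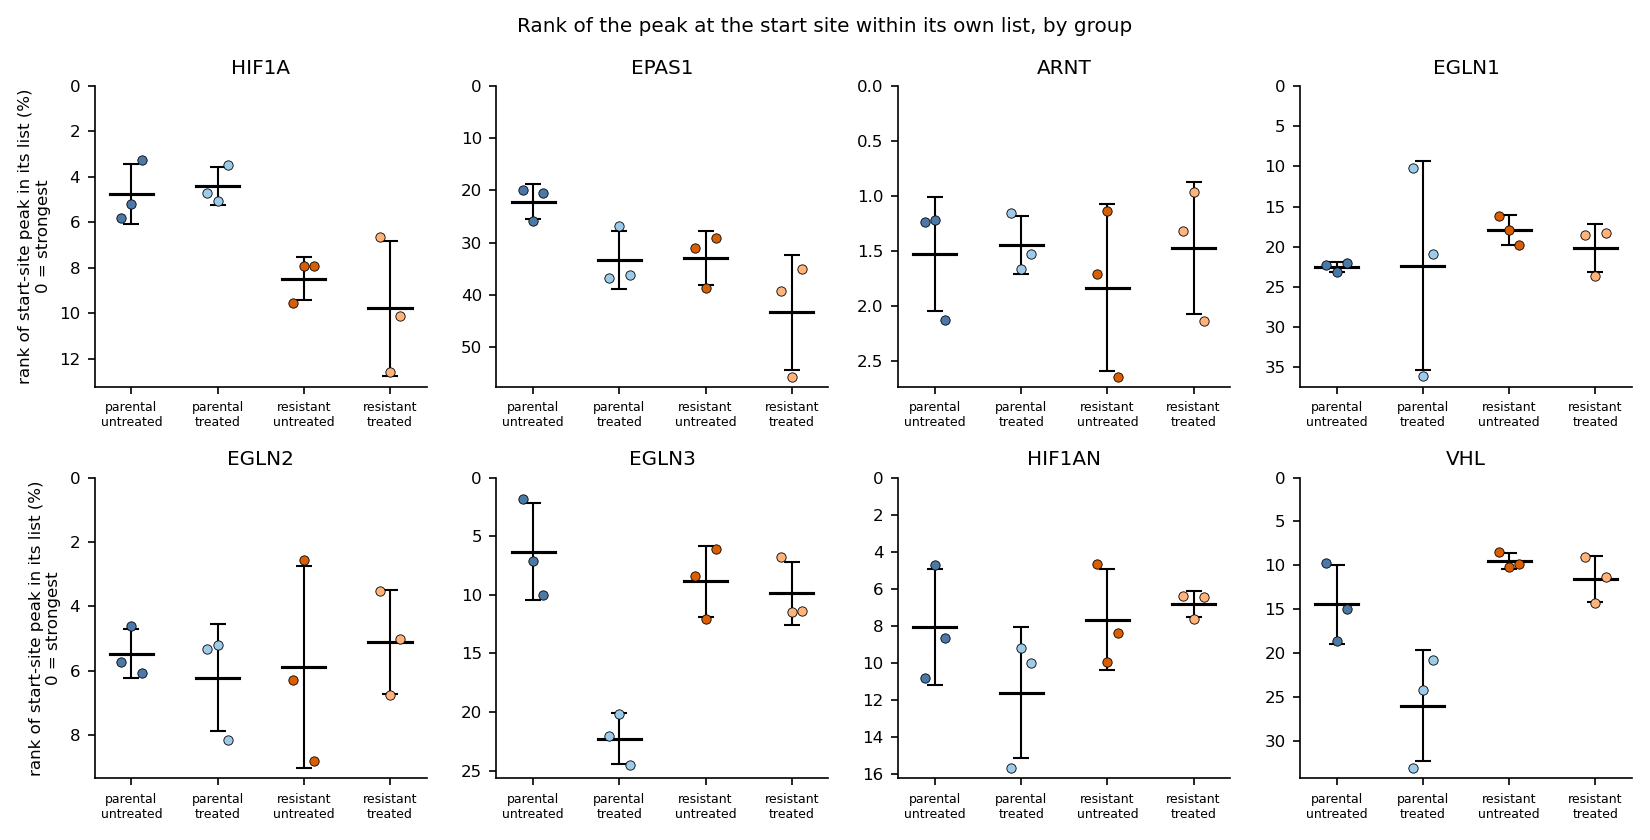
Rank of the start-site peak within its own list (percent, vertical axis, 0 strongest and at the top) for the 8 genes with such a peak in 12 libraries; points are libraries, lines means and bars SD (n = 3). HIF1A lies at 3.26 to 5.82% in parental and 6.64 to 12.6% in resistant libraries, and EGLN3 lies at 20.2 to 24.5% in treated parental libraries only.

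Set side by side, the 4 comparisons of the design differed in how many members were separated. Treated parental libraries lay below untreated ones without overlap at 3 of 10 genes (EPAS1, EGLN2 and HIF1AN) and above at 0, against 25.9% and 0.508% of all genes. In resistant cells no member was separated by treatment, against 4.42% of genes lower and 1.2% higher. Untreated resistant and parental libraries were separated at no member, against 14.7% of genes higher and 0.981% lower in resistant cells. Treated resistant libraries lay above treated parental ones at 5 of 10 (HIF1A, EPAS1, HIF3A, EGLN1 and HIF1AN) and below at 0, against 38.0% and 0.898% of genes. HIF1AN was separated narrowly in both comparisons that count it. Treated parental libraries reached 1045 bp there, and untreated parental and treated resistant libraries each began at 1053 bp. Per covered Mb its treated to untreated ratio in parental cells turned from 0.892 to 1.26, and the groups overlapped. At 10 genes, the counts of separated members were not far from the background shares. The comparisons share groups and are not independent of each other.

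On the per-Mb scale other members were separated. Treated parental libraries lay below untreated ones at EPAS1 and, narrowly, at EGLN2, against 7.81% of genes. They lay above them at ARNT (1.37 times) and, narrowly, at EGLN3, against 7.33%. At ARNT the treated parental bases include the peaks called in 1 library each that are given above. In resistant cells HIF1AN was higher with treatment (1.18 times), against 3.77% of genes, and none was lower, against 2.77%. Between untreated cells EGLN1 was lower in resistant cells (0.890 times), against 7.58%, and none was higher, against 5.71%. Between treated cells EPAS1 was higher in resistant cells, against 12.0%, and ARNT (0.682 times) and VHL (0.755 times) were lower, against 9.4%. HIF1A, HIF3A and HIF1AN, separated between treated cells by covered length, overlapped on this scale with ratios of 0.811, 0.889 and 0.833.
 With 1 library left out, fewer libraries have to lie apart, so each count stands beside the share of all genes separated in the same setting. By covered length, treatment in parental cells separated 6 members without untreated parental replicate 3 (45.4% of all genes in either direction) and 5 without treated parental replicate 2 or 3 (40.3% and 36.2%). Treatment in resistant cells separated 3 without untreated resistant replicate 3 (12.2% of all genes). It separated 1 without untreated resistant replicate 1 or 2 (11.8% and 16.7%) and 1 without treated resistant replicate 1 or 2 (16.3% and 13.4%). Untreated resistant and parental cells were separated at 2 members without untreated parental replicate 3 (21.2% of all genes). They were separated at 1 without untreated parental replicate 2 (27.8%) or untreated resistant replicate 2 or 3 (32.0% and 23.4%).

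By unadjusted p over the 12 libraries, 2 of 10 members (EPAS1 and HIF1AN) covered more in resistant cells, against 29.4% of all genes, and 1 of 10 (EPAS1) covered less in treated cells, against 10.2%. The median phenotype difference of the members was 162 bp beside 139 bp over all genes, and the median treatment difference was -127 bp beside -79.8 bp. Per covered Mb the direction by phenotype turned for 8 of the 10 genes, all but EPAS1 and ARNT2, against 40.1% of all genes that were higher by covered bases. At an unadjusted p under 0.05, 2 of 10 were lower in resistant cells on this scale, ARNT at -11.6 (exact permutation p = 0.03, adjusted p = 0.243) and VHL at -9.3 (exact permutation p = 0.01, adjusted p = 0.170), against 8.09% of all genes. No gene passed after adjustment on this scale, where 6469 had an unadjusted p under 0.05. Of the 58 regions, the pair at EPAS1 and EGLN2 described above were the ones that went from all to no libraries of a group in a comparison, and between treated resistant and treated parental cells no member region did, against 2.71% of regions.

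By rank of the start-site peak, 3 of 8 members were weaker in treated than in untreated parental cells without overlap (EPAS1, VHL and EGLN3), against 21.0% of genes, and none was stronger, against 1.53%. In resistant cells treatment separated none, against 5.35% weaker and 2.27% stronger. Between untreated cells, HIF1A and EPAS1 were weaker in resistant cells, against 6.9% of genes, and EGLN1 was stronger, against 14.1%. Between treated cells, HIF1A was weaker, against 5.15%, and VHL, EGLN3 and HIF1AN were stronger, against 23.5%. HIF1A was the one member separated in the same direction in both phenotype comparisons.

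**Figure D4:**
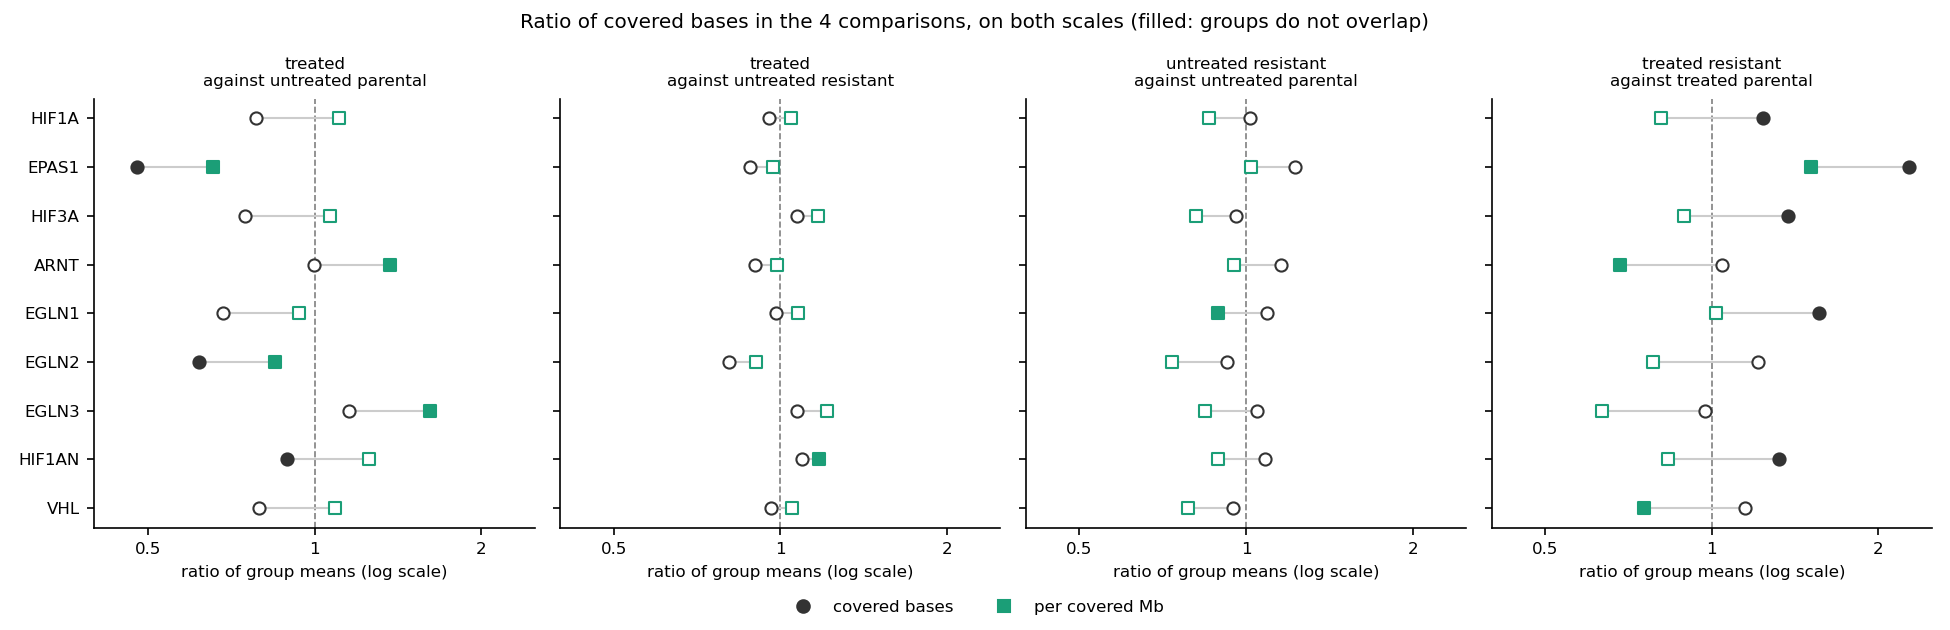
Ratio of mean covered length (log axis) in the 4 comparisons for 9 genes (ARNT2, with libraries at 0, is left out); circles are covered bases, squares bases per covered Mb, and filled symbols mark groups without overlap. EPAS1 is the gene whose filled symbols stay on the same side on both scales in treated against untreated parental cells (0.477 and 0.657) and in treated resistant against treated parental cells (2.27 and 1.51).

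Among all 34961 start windows of this length, 48.5% held at least 1 core, and 5 of the 12 windows of the 8 members with an entry did. A match describes letters only, and a window without one says nothing about binding.

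A list of 22 further genes of the pathway (subunits of the VHL ligase, coactivators and a competitor of theirs, ligases of the prolyl hydroxylases and hypoxia-induced genes) had peaks in at least 1 library for all 22, and a start-site peak in 12 libraries for 19. At an unadjusted p under 0.05, 8 covered more and 0 covered less in resistant cells, beside 29.4% of all genes with more, and 4 covered less and 0 more in treated cells, beside 10.2% of all genes with less. None passed after adjustment. Treated parental libraries lay below untreated ones without overlap at 10 of the 22 (25.9% of all genes), and treated resistant above treated parental ones at 9 (38.0% of all genes). The list's median phenotype difference was 307 bp and its median treatment difference -256 bp. Per covered Mb these medians were -6.82 and -0.0453, so the direction by phenotype turned with the scale. On that scale, at an unadjusted p under 0.05, resistant cells had 4 of the 22 lower, beside 8.09% of all genes, and 2 higher. In treated cells 2 were lower and 0 higher. The shares of all genes higher by phenotype, and by treatment in either direction, are not given here, so those counts have no background. Treated parental libraries lay below untreated ones at 3 (7.81% of all genes) and above at 2 (7.33%). Treated resistant libraries lay above treated parental ones at 2 (12.0% of all genes) and below at 4 (9.4%).

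VEGFA, the main angiogenic target of HIF, and ADM, which encodes the vasodilator adrenomedullin, were the genes of this list separated in the same direction in both comparisons of a kind, VEGFA by phenotype and ADM by treatment. VEGFA covered 2534, 1875 and 1485 bp in untreated parental and 934, 1060 and 887 bp in treated parental libraries, against 3543, 2987 and 3657 bp in untreated resistant and 3065, 1392 and 3045 bp in treated resistant libraries. Resistant minus parental was 1486 bp (exact permutation p = 0.005, adjusted p = 0.0613). Per covered Mb the untreated groups stayed apart, at 71.7 to 101 and 105 to 134, while treated groups overlapped, with 65.2 in 1 treated resistant and 67.8 in 1 treated parental library. ADM covered 2363, 1739 and 2116 bp in untreated parental and 1311, 1511 and 1254 bp in treated parental libraries. In resistant cells it covered 2740, 2007 and 2602 bp untreated and 1944, 1312 and 1710 bp treated. Treated minus untreated was -754 bp (exact permutation p = 0.005, adjusted p = 0.396), and per covered Mb the parental groups overlapped while the resistant groups stayed apart, at 78.5 to 95.2 untreated and 61.5 to 63.3 treated.

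Of 14122 protein-coding genes with a peak in every library, those on other chromosomes than the member were compared with it. Across the 12 libraries, the covered length of HIF1A was most like that of CHMP4B (Pearson r = 0.948), LGALS8 (0.929) and NCKIPSD (0.910). That of EPAS1 was most like ADAM8 (0.976), DIAPH1 (0.975) and CTSO (0.973). The 12 points share library depth and covered length, so these values describe likeness only.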

How the data were processed

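ATAC-seq libraries of 4 groups with 3 libraries each were analysed. The authors aligned reads to hg38 with Bowtie2 (2.1.0), dropped reads that were mitochondrial, duplicated or multi-mapped, and ran MACS2 on each library alone (broad peaks, paired fragments); the MACS2 version, cutoff and any blacklist are not given in the sources used here. The deposited lists hold peak positions, a score, a fold enrichment over the library's own background and -log10 p and q values, as the authors' caller wrote them, and no read counts. The smallest deposited -log10 q was 1. Strengths compare only within a list, so ranks by -log10 q were used.

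Peaks on chromosomes 1 to 22 and X were kept, intersected with RefSeq gene spans (GRCh38.p14) extended by 5 kb, and merged over libraries where they shared at least 1 bp. Covered bases and ranks were tested by two-sided exact permutation within strata (400 assignments). Regions in 5 to 7 libraries were tested by Fisher's exact test. Each of these had Benjamini-Hochberg adjustment over all features. Pairs of groups were tested by 3 against 3 permutation (20 assignments, smallest p 0.1), and those p-values were not adjusted. limma (3.58.1, R 4.3.3) with pseudocounts of 100 bases or 4 bases per covered Mb and ranks within equal numbers of peaks were added after seeing the data. Scripts used Python 3.11.15, numpy 2.4.6, pandas 2.3.3 and scipy 1.17.1, and were tested on simulated data. All 10 genes are named; pathway genes are named where they pass adjustment or do not overlap in the same direction in both phenotype or both treatment comparisons, and any other is said to have been picked after its values were seen. Members and lists were chosen with earlier results of these data known.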

Additional observations from a re-analysis of the deposited data

How the results depend on the processing

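No alternative run turned the direction of EPAS1 or ARNT2 by phenotype or by treatment, or that of EGLN2 or EGLN3 by treatment. None turned the ranks of HIF1A, EPAS1, VHL, EGLN3 or HIF1AN by phenotype. Keeping only peaks that reached a -log10 q of 3, 6583 genes passed adjustment by phenotype (no member) and 307 regions did, and the members separated without overlap numbered 5, 1, 1 and 3 in place of 3, 0, 0 and 5 in the comparisons named here parental (treated against untreated), resistant (the same), untreated (resistant against parental) and treated (resistant against parental), beside 37.3, 5.45, 20.7 and 57.5% of all genes in place of 26.4, 5.62, 15.7 and 38.9%. With the same number of best-ranked peaks per list, 3951 genes passed by phenotype, EPAS1 among them (726 bp, permutation adjusted p = 0.0462), and the resistant and untreated comparisons each separated 1 member (6.22 and 19.6% of all genes). Ranks within these equal lists, chosen after seeing the data, let 1719 genes pass by phenotype, HIF1A and VHL among them. With peaks of at least 124 bp, the untreated comparison separated 1 (17.1% of all genes), 1726 genes passed by rank (HIF1A and VHL among them), and the treatment difference of HIF1AN was 30 bp. With no extension of the span, the parental, resistant and treated comparisons separated 1, 1 and 3 (23.2, 5.84 and 34.6% of all genes), EGLN3 by phenotype was -11.3 bp and HIF1AN by treatment 18.8 bp. Over protein-coding genes only, 2013 passed by phenotype. Counting peaks, the parental comparison separated 3 (5.34% of all genes), with EPAS1 and EGLN2 lower and ARNT higher in treated cells. The ARNT count includes the peaks called in 1 library each. The treated comparison separated 2 (6.82% of all genes). In this setting the phenotype difference turned for HIF1A (-1), ARNT (-0.667), VHL (-0.5), EGLN1 (-0.833), EGLN2 (-0.667) and HIF1AN (-0.167) and the treatment difference for ARNT (0.667), VHL (0.167) and EGLN1 (0.167). Per covered Mb, the resistant, untreated and treated comparisons separated 1, 1 and 3 (6.54, 13.3 and 21.4% of all genes). On that scale the phenotype difference turned for HIF1A (-12.7), HIF3A (-7.85), ARNT (-11.6), VHL (-9.3), EGLN1 (-5.46), EGLN2 (-14.6), EGLN3 (-7.39) and HIF1AN (-7.43), and the treatment difference for HIF1A (5.25), HIF3A (5.27), ARNT (8.57), VHL (2.44), EGLN1 (0.321) and HIF1AN (9.55). By limma on log2(covered bases + 100), chosen after seeing the data, 8044, 23 and 2 genes passed by phenotype, treatment and their interaction, and EGLN2 by phenotype was -0.031. By limma on log2(bases per covered Mb + 4), also chosen then, 1673, 14 and 8 passed. In that fit the phenotype difference turned for HIF1A (-0.261), HIF3A (-0.217), ARNT (-0.292), VHL (-0.342), EGLN1 (-0.0651), EGLN2 (-0.450), EGLN3 (-0.381) and HIF1AN (-0.184), and the treatment difference for HIF1A (0.108), HIF3A (0.145), ARNT (0.199), VHL (0.0861), EGLN1 (0.000743) and HIF1AN (0.252). Ranked by the authors' fold, EGLN1 by phenotype was 7.59 points. The cause of these turns was not tested. With 1 library left out, the parental, resistant and untreated comparisons separated 3 to 6, 0 to 3 and 0 to 2 members, with the shares of all genes given above. The phenotype difference in covered bases then ranged from -8.17 to 74.1 bp for VHL, -122 to 234 bp for EGLN2 and -40.3 to 32.8 bp for EGLN3, the treatment difference of HIF1AN from -52.0 to 53.8 bp, and the rank difference from -0.0374 to 0.339 points for ARNT, -6.44 to 0.0343 for EGLN1 and -1.08 to 0.475 for EGLN2. Same-numbered libraries did not deviate together (correlations -0.141 to 0.187 over 12 pairs, 2 above 0.1, 3 of 12 libraries closest to their own number), and the replicate block cannot give a p under 0.03125, so that its 0 genes past adjustment say nothing of stability, with 4, 3, 0 and 6 members moving in 1 direction in every pair of the 4 comparisons (39.2, 21.8, 28.1 and 46.8% of all genes). Peak lists hold no read counts, so levels inside called peaks, and signal under the callers' threshold, could not be compared.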

Other observations

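CA9, the cell-surface carbonic anhydrase widely used as a marker of HIF activity, had no peak within 5 kb of its span in any of the 6 parental libraries. In untreated resistant libraries its window had 1095, 816 and 154 covered bp, and in treated resistant libraries 0, 479 and 222 bp. All but 1 of the resistant libraries had a CA9 peak, and the treated and untreated groups overlapped. The region behind most of these bases (chr9:35680555-35682434, 1880 bp) was called in 3 untreated and 1 treated resistant libraries, lies within the spans of both CA9 and TPM2, and is not at the annotated CA9 start site, where no library had a peak. CA9 and BNIP3 were picked out after their values were seen, so no test is given. BNIP3, a mitophagy receptor induced by HIF, covered 121, 0 and 0 bp in untreated parental libraries and 0 bp in the 3 treated ones. It covered 858, 133 and 0 bp in untreated resistant and 0, 0 and 735 bp in treated resistant libraries, so all groups overlapped.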
